A study of Mus musculus with 47 samples.

Results

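The cell division genes described here are 48 named mouse genes, of which 19 act around DNA replication (the S-phase members) and 29 act in the G2 phase and in mitosis (the mitotic members). They were taken from a list of names, and all 48 were found and tested in both tables of read counts, which list 53402 genes for adult mice and 55471 genes for neonatal mice. RNA was sequenced from medullary thymic epithelial cells (mTECs) of C57BL/6 mice, sorted as DAPI- CD45- EpCAM+ Ly51- cells and split by their MHC class II into a high fraction, mTEChi, and a low fraction, mTEClo. The adult libraries were WT mTEClo (n = 8, 4 or 5 weeks old), WT mTEChi (n = 7, 4 or 5 weeks), AireKO mTEClo (n = 4, 5 or 6 weeks) and AireKO mTEChi (n = 4, 5 or 6 weeks). All adult AireKO libraries are labelled male, while each adult WT group holds male and female libraries. WT mTEClo libraries are mostly female and WT mTEChi libraries mostly male, so sex is not balanced between genotypes or fractions. The neonatal libraries, from mice of 1 to 6 days, were Ctrl (mTEClo n = 3, mTEChi n = 5), EEDcKO (mTEClo n = 4, mTEChi n = 3), AireKO (mTEChi n = 3) and AireEEDdKO (n = 3 in each fraction). AireKO mice lack Aire, the regulator that lets mature mTECs express tissue-restricted antigens. EEDcKO mice carry floxed Eed alleles and a Cre driven by Foxn1, a gene of thymic epithelium in cortex and medulla alike, and so lose a core subunit of Polycomb repressive complex 2, which deposits the repressive mark H3K27me3. AireEEDdKO mice carry both defects. The labels name the neonatal controls only as Ctrl, and some neonatal libraries pooled male and female animals. The titles of all AireEEDdKO mTEClo libraries and of EEDcKO mTEClo replicates 3 and 4 lack the library code that the other titles carry. These 2 EEDcKO replicates are from mice of 6 and 4 days. No label says how the libraries without the code differ from the rest.

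A dividing cell passes through a fixed order of steps. Cyclin E (Ccne1, Ccne2) and the E2F factors open S phase, Cdc6 and Cdt1 load the helicase made of Mcm2 to Mcm7 onto replication origins, Cdc45 and Gins2 activate it, Pcna clamps the polymerases, and Rrm1, Rrm2 and Tyms supply nucleotides. In G2 and mitosis cyclins A and B with Cdk1, the kinases Plk1, Aurka and Aurkb, kinesins, centromere proteins and the checkpoint kinases Bub1 and Bub1b drive the condensation, alignment and separation of the chromosomes, and Cdc20 and Ube2c serve the destruction of cyclin B. In the thymic medulla, dividing cells are found mainly among immature mTECs and among cells close to the onset of Aire expression, while mTECs that have expressed Aire for some time have largely left the cycle. In a bulk library fewer dividing cells and less of these RNAs per cell cannot be told apart.

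Many promoters of mitotic genes hold a CCAAT element and a CHR (cell cycle genes homology region), and many promoters of replication genes hold an E2F element. These words were searched on both strands in the 250 bases before the gene starts given by RefSeq (GRCm38.p6), where 39 of the 48 members had a window. The letters CCAAT stood before 19 of 23 mitotic genes and 11 of 16 S-phase genes, against 37.5% of all 27025 genes with a window. The CHR words TTTGAA or TTCGAA stood before 10 of 23 mitotic genes and 4 of 16 S-phase genes, against 19.6% of all genes. An E2F word (TTTCCCGC, TTTCGCGC, TTTGCCGC or TTTGGCGC) stood before 5 of 16 S-phase genes and 1 of 23 mitotic genes, against 2.16% of all genes. The last 160 bases before the start are shown for Cdc20 and Top2a among the mitotic and Mcm5 and Cdc6 among the S-phase members, whose levels are described further on, with the words in capitals on either strand; in Mcm5 a forward and a reverse E2F word overlap. The gene annotation used for exon lengths starts Cdc6 earlier, at 98907801, so its stretch lies within that gene, although 0 of its bases are exonic. The last 9 bases of the Cdc20 stretch, with its last CCAAT, lie in annotated Cdc20 exons. A match describes letters only.
Cdc20 (chr4:118437344-118437503, minus strand): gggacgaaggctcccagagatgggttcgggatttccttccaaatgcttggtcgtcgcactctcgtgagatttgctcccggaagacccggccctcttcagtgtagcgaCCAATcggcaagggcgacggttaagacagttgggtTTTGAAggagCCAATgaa
Top2a (chr11:99024190-99024349, minus strand): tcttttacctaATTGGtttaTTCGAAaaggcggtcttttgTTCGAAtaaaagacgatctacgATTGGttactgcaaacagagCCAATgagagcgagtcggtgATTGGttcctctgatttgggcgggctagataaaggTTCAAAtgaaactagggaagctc
Mcm5 (chr8:75109349-75109508, plus strand): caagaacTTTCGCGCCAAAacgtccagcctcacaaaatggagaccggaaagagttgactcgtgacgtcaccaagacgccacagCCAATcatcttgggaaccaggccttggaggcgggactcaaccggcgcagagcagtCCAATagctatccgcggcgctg
Cdc6 (chr11:98907991-98908150, plus strand): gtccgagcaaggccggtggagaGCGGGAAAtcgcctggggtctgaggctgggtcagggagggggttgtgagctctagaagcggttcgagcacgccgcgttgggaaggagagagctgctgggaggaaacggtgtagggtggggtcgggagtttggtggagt

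Libraries held 1602125 to 3938588 counted reads in the adult table and 1578579 to 4817418 in the neonatal table. In 6 adult libraries, all 4 of AireKO mTEChi and replicates 3 and 4 of AireKO mTEClo, no mitochondrial read was counted, while the other 17 adult and all 24 neonatal libraries had such reads, so in adult mTEChi genotype and this difference cannot be told apart. Aire stood at 753 to 921 CPM (read counts relative to the TMM-scaled size of the library) in adult WT mTEChi and at 17.1 to 39.3 in AireKO mTEChi. In neonatal mTEChi it stood at 464 to 808 CPM in Ctrl and 603 to 1072 in EEDcKO, against 44.8 to 115 in AireKO and 9.94 to 32.3 in AireEEDdKO. Eed stood at 20.4 to 38.8 CPM in neonatal Ctrl mTEChi and at 10.7 to 19.8 in EEDcKO mTEChi. Aire was at 324 to 333 CPM in neonatal Ctrl mTEClo and at 19.6 to 128 in adult WT mTEClo. Age and sex in the labels set some libraries of a group apart as different animals, and the study treats mTEChi libraries as individual mice, although several are labelled as pools. No label numbers the animals, so it is not known whether the libraries alike in age and sex, or the fractions, share them, and p-values measure the spread between these libraries, which may in part be technical. Over 92 pairs of libraries within a group, chi-squared per degree of freedom, near 1 for counting noise alone, was 1.23 to 14.02 (median 3.74). In adult AireKO mTEChi it was 1.34 and 1.28 for the pairs alike in age and sex and 3.998 to 6.388 for pairs across ages. Not every pair alike in age and sex was so close, with 3.99 for AireKO mTEClo replicates 3 and 4.

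**Figure D1:**
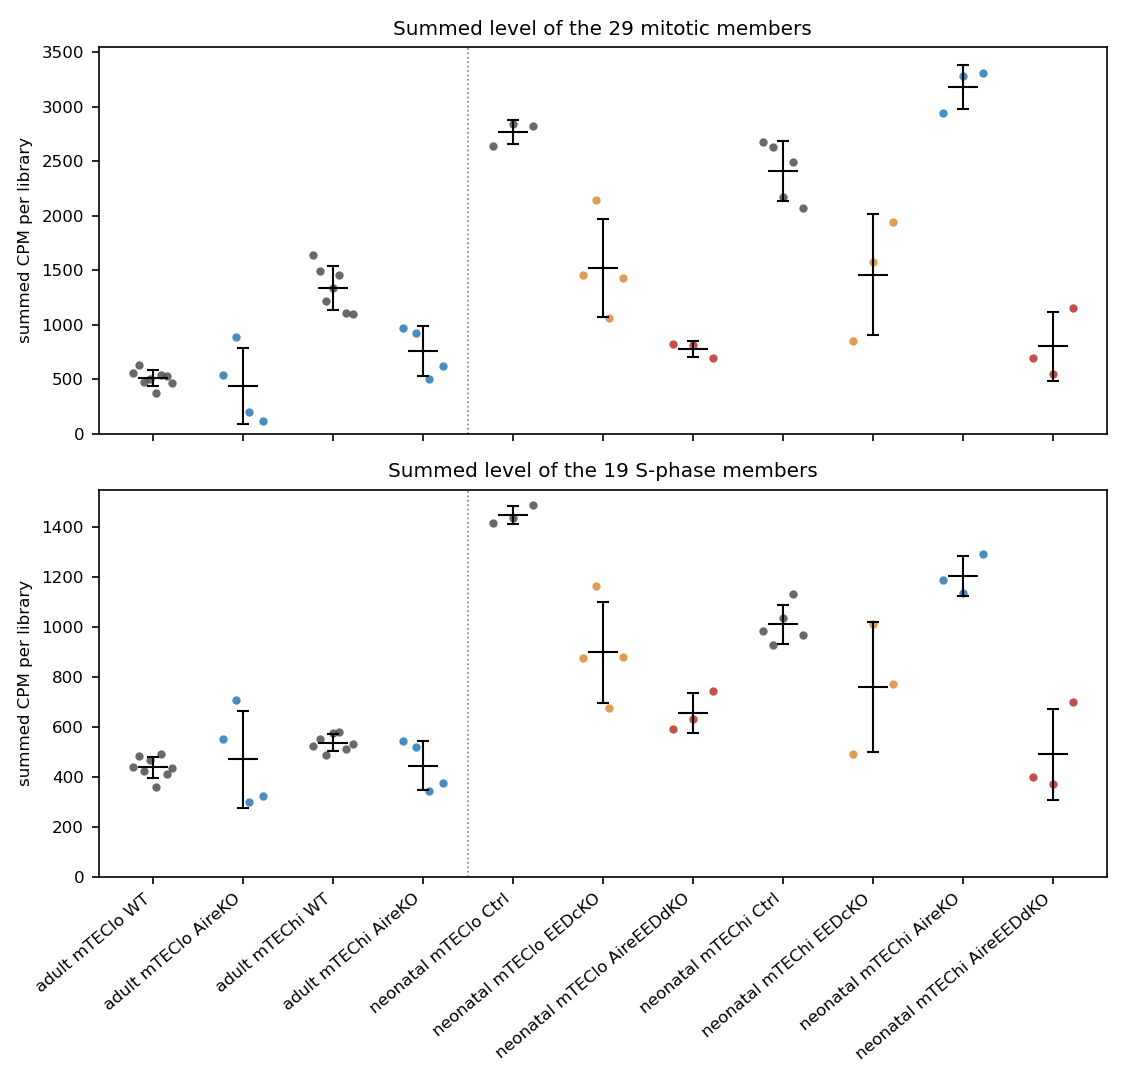
Summed level (CPM, y axis) of the 29 mitotic members (top) and the 19 S-phase members (bottom) in each library (points) of the 11 groups (x axis), with the mean and SD (bars); the dotted line parts the adult and neonatal tables, which were scaled separately. Mitotic sums run from 116 CPM in an adult AireKO mTEClo library to 3309 CPM in a neonatal AireKO mTEChi library.

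Cell division RNA took a larger share of the libraries in neonatal than in adult control mTECs. The mitotic members summed to 2767 ± 113 CPM (SD, n = 3) in neonatal Ctrl mTEClo and to 509 ± 74.2 CPM (n = 8) in adult WT mTEClo. In mTEChi the mitotic sums were 2409 ± 275 CPM (n = 5) in neonates and 1337 ± 205 CPM (n = 7) in adults. The S-phase members summed to 1449 ± 36.8 CPM in neonatal Ctrl mTEClo and 439 ± 42.0 in adult WT mTEClo, and to 1010.4 ± 79.1 in neonatal Ctrl mTEChi and 537 ± 33.6 in adult WT mTEChi. The tables were scaled separately, so these levels are set side by side without a test. Per kilobase of exon, Mki67, which encodes the proliferation antigen Ki-67, had the highest level in neonatal Ctrl mTEChi at 44.9 CPM per kb and in adult WT mTEChi at 24.6, followed in both by Top2a, the topoisomerase that untangles chromosomes, and by Uhrf1, which helps to copy DNA methylation at replication. In adult WT mTEClo a different member led: Mcm6 stood at 14.2 CPM per kb, Mcm4 at 12.1 and Mki67 at 10.7, and Ccnb1, a cyclin B, was last at 0.705.

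In adult WT mice nearly all mitotic members were at least 2-fold higher in mTEChi than in mTEClo, while most S-phase members differed by less than 2-fold. Of 29 mitotic members 26 were called higher in mTEChi and none lower, and of 19 S-phase members 3 were called higher (Rrm2, Uhrf1 and Gins2) and none lower. Called means an edgeR quasi-likelihood test with a Benjamini-Hochberg adjusted p under 0.05 over all genes tested and a change of at least 2-fold, and by that rule 23.7% of the 19310 genes tested were higher and 12.4% lower. Without the 2-fold limit 28 of 29 mitotic and 10 of 19 S-phase members passed the test as higher and 1 S-phase member as lower, where 70.5% of genes passed in either direction. The median log2 fold change was 1.50 over the mitotic members, 0.52 over the S-phase members and 0.0044 over all genes. Of further genes of these processes, 41 of 63 mitotic and 12 of 46 S-phase genes tested were called higher and none lower. Gins2 shares 67.3% of its exon bases with Gse1 and reads were counted without strand, so its value is uncertain.

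Mki67 ran from 70.8 to 142 CPM in adult WT mTEClo (median 107) and from 167 to 319 CPM in adult WT mTEChi (median 250.2). Every mTEChi library lay above every mTEClo library, and the difference was 2.32-fold (log2 1.22 ± 0.29 SE, edgeR adjusted p = 0.000423). Top2a ran from 37.7 to 68.9 CPM (median 56.1) in mTEClo and from 124 to 262 CPM (median 191) in mTEChi, again without overlap, a 3.58-fold difference (log2 1.84 ± 0.29, edgeR adjusted p = 1.71e-06). The largest rise was that of Cdc25c, the phosphatase that activates Cdk1, from 3.77 ± 1.15 CPM (SD) to 23.5 ± 4.52 CPM (log2 2.67 ± 0.28, edgeR adjusted p = 1.16e-09). Bub1 rose 4.35-fold and Tpx2, a spindle assembly factor that activates Aurka, 3.76-fold. Cdk1 ran from 7.08 to 18.5 CPM (median 12.3) in mTEClo and from 35.6 to 50.1 CPM (median 44.7) in mTEChi, also without overlap.

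Among the S-phase members Rrm2, the regulated subunit of ribonucleotide reductase, ran from 4.55 to 12.1 CPM (median 9.05) in adult WT mTEClo and from 25.4 to 29.7 CPM (median 28.9) in WT mTEChi, a 3.13-fold difference without overlap (log2 1.65 ± 0.28, edgeR adjusted p = 5.91e-06). The helicase genes differed less. Mcm5 ran from 31.3 to 47.4 CPM (median 35.2) in mTEClo and from 28.9 to 51.0 CPM (median 39.8) in mTEChi, so that the fractions overlapped, and its log2 difference was 0.16 ± 0.24 (edgeR adjusted p = 0.56). Mcm7 was lower in mTEChi, with a log2 difference of -0.68 ± 0.13 that passed the test without reaching 2-fold (edgeR adjusted p = 5.42e-05). Cdc6 was at 3.43 to 5.15 CPM in mTEClo and at 3.88 to 7.76 in mTEChi, with overlap. The ratio of the mitotic to the S-phase sum was 1.05 to 1.31 in adult WT mTEClo and 2.07 to 3.12 in adult WT mTEChi.

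Markers of other cells also differed between these fractions. The sum of 12 thymocyte genes was 28.5 to 42.4 CPM in adult WT mTEClo and 89.9 to 125 CPM in WT mTEChi, with Cd3d at 0 in 7 of 8 mTEClo libraries and at most 2.11 CPM in mTEChi. The sums of 6 mesenchymal genes were 55.0 to 87.9 CPM in mTEClo and 189 to 352 in mTEChi, those of 7 myeloid genes 38.0 to 68.9 and 285 to 352, and those of 7 cortical epithelial genes 291 to 366 and 737 to 840. Their part in the result was not tested.

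In neonatal Ctrl mice no member was called higher in mTEChi than in mTEClo. E2f8 among the S-phase members and Foxm1 among the mitotic members were called lower, where 13.8% of the 20196 genes tested were called higher and 6.92% lower. The median log2 fold change was -0.52 over the S-phase members, -0.18 over the mitotic members and -0.0050 over all genes, and without the 2-fold limit 9 S-phase members and 1 mitotic member passed the test as lower, where 37.4% of genes passed in either direction. Foxm1, the factor that drives many G2 and mitotic genes, was at 93.1, 95.7 and 104 CPM in mTEClo and at 38.4, 33.7, 40.2, 45.4 and 44.0 CPM in mTEChi. These groups did not overlap and differed 2.39-fold (log2 -1.26 ± 0.24, edgeR adjusted p = 0.000436). E2f8, a repressor of E2F targets, was at 51.5 to 62.6 CPM in mTEClo and 22.2 to 33.4 CPM in mTEChi (log2 -1.12 ± 0.25, edgeR adjusted p = 0.00168). Without Ctrl mTEClo replicate 3 only 1 member was called.

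Among the other members of neonatal Ctrl mice, some overlapped between the fractions and some did not. Mki67 was at 481, 498 and 516 CPM in mTEClo and at 537, 536, 382, 438 and 366 CPM in mTEChi, with overlap and a log2 difference of -0.14 ± 0.25. Top2a averaged 350.02 ± 25.9 CPM in mTEClo and 349.6 ± 79.4 CPM in mTEChi. Mcm5 was at 145, 146 and 161 CPM in mTEClo and at 67.4, 73.2, 100.3, 110.2 and 82.2 CPM in mTEChi, without overlap (log2 -0.78 ± 0.31, edgeR adjusted p = 0.048, under 2-fold). Cdc6, at 25.7 to 31.8 CPM against 11.1 to 17.6, likewise passed the test under 2-fold (log2 -0.94 ± 0.31, edgeR adjusted p = 0.022). The cortical genes summed to 2170 to 3307 CPM in these mTEClo libraries and to 572 to 1065 CPM in mTEChi, with Psmb11, the thymoproteasome subunit of cortical cells, at 189 to 370 and 6.12 to 68.4 CPM. Other sums were lower in mTEClo than in mTEChi without overlap, at 27.9 to 44.2 against 99.98 to 126 CPM for the thymocyte genes, 113 to 190 against 297 to 341 for the myeloid genes and 120 to 128 against 239 to 313 for the mesenchymal genes. Their part in the result was not tested.

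The difference between adult and neonatal mice in the change from mTEClo to mTEChi was tested itself, in 1 fit of both tables. Of 29 mitotic members 28 were called, all except Mybl2, and of 19 S-phase members 9 were, each with the higher value in adults, where 14.1% of the 21289 genes tested were called in that direction and 5.95% in the other. The median difference (log2) was 1.67 over the mitotic members, 0.95 over the S-phase members and 0.095 over all genes. It was largest for Cdc25c at 2.30 ± 0.42, Bub1 at 2.21 ± 0.39 and Aurkb at 2.21 ± 0.45 (edgeR adjusted p = 4.15e-05, 2.96e-05 and 0.000171). Mki67 gave 1.35 ± 0.44 and passed the test, and Mcm5 gave 0.94 ± 0.41 and did not (edgeR adjusted p = 0.017 and 0.082). Of further genes of these processes, 45 of 65 mitotic and 16 of 46 S-phase genes were called in the same direction and none in the other. Age and table are the same split of the libraries and cannot be told apart here. The cortical sum was lower in adult WT mTEClo than in mTEChi, at 291 to 366 against 737 to 840 CPM. In neonatal Ctrl mice it was higher in mTEClo, at 2170 to 3307 against 572 to 1065 CPM. Its part in the result was not tested.

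**Figure D2:**
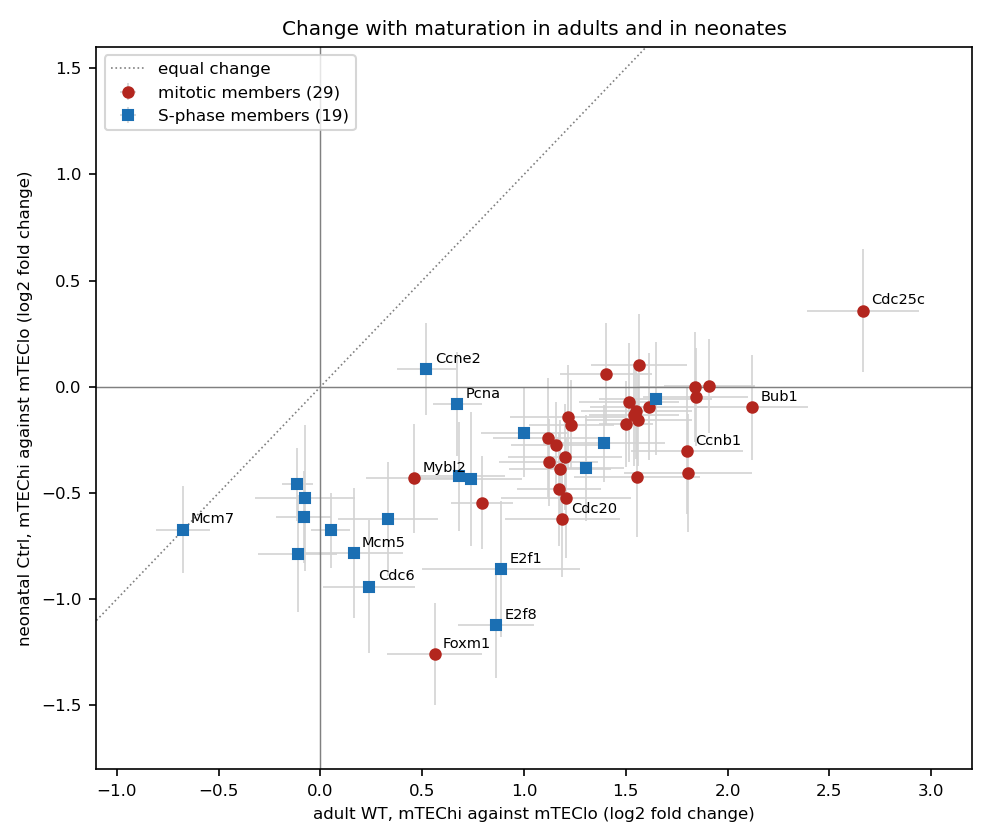
Log2 fold change from mTEClo to mTEChi of each member in adult WT mice (x axis, 7 against 8 libraries) and in neonatal Ctrl mice (y axis, 5 against 3 libraries), with grey bars for the SE; circles are mitotic and squares S-phase members, and the dotted line marks equal change. Mitotic members lie between 0.46 and 2.67 on the adult axis and between -1.26 and 0.36 on the neonatal axis.

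In adult mTEChi, AireKO libraries had lower levels of part of the mitotic members than WT. Of 29 mitotic members 11 were called lower and none higher, and of 19 S-phase members E2f8 alone was called, also lower, where 17.8% of the genes tested were lower and 5.63% higher. The median log2 fold change was -0.81 over the mitotic members, -0.32 over the S-phase members and -0.015 over all genes, and 19 of 63 further mitotic and 10 of 46 further S-phase genes were called lower. Kif11, the kinesin that separates the spindle poles, ran from 40.9 to 66.2 CPM (median 55.3) in WT and was at 23.5, 21.1, 11.5 and 17.0 CPM in AireKO. The groups did not overlap and differed 3.06-fold (log2 -1.61 ± 0.32, edgeR adjusted p = 0.000107). Mki67 was at 109.9, 129, 70.0 and 82.9 CPM in AireKO, below the lowest WT library at 167 (log2 -1.34 ± 0.36, edgeR adjusted p = 0.00271). E2f8 fell most, from 11.7 ± 1.89 CPM (SD) to 2.99 ± 0.342 CPM (log2 -1.98 ± 0.27, edgeR adjusted p = 8.1e-07), and Cenpe, a kinesin of the kinetochore, fell 2.64-fold.

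Of the members not called in this comparison, some passed the test as lower under 2-fold, while Cdk1, Birc5 and Pcna did not pass. Cdk1 was at 70.2, 69.9, 39.4 and 44.0 CPM in AireKO mTEChi against 35.6 to 50.1 in WT (median 44.7). Birc5, which encodes survivin, was at 15.7, 11.8, 7.13 and 7.05 CPM against 7.12 to 11.5 (median 9.84), and Pcna at 29.6, 30.1, 32.3 and 39.8 CPM against 24.9 to 36.7. For all 3 the groups overlapped. The ratio of the mitotic to the S-phase sum was 1.47 to 1.80 in AireKO mTEChi, below the lowest WT mTEChi library at 2.07.

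The AireKO mTEChi libraries differed by age. The mitotic sum was 974 and 925 CPM at 5 weeks and 506 and 624 CPM at 6 weeks, against 1097 to 1636 CPM in WT of 4 or 5 weeks. Uhrf1 was at 90.2 and 89.8 CPM at 5 weeks and at 38.0 and 39.4 CPM at 6 weeks, against 76.2 to 91.2 in WT. Without the 6-week libraries 5 members in place of 12 were called, all lower. The thymocyte sum was 45.2 to 58.9 CPM in AireKO and 89.9 to 125 in WT, and the cortical sum 1058 to 1166 against 737 to 840. Their part in the result was not tested.

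The adult AireKO mTEClo libraries lay on both sides of WT. The mitotic sum was 543 and 884 CPM in replicates 1 and 2, which are from 5-week mice and have mitochondrial reads, and 202 and 116 CPM in replicates 3 and 4, which are from 6-week mice and have none, against 377 to 630 CPM in WT. Mki67 was at 96.8, 163, 25.1 and 11.1 CPM against 70.8 to 142 in WT, and Cdc20, the activator of the anaphase-promoting complex, at 16.7, 37.3, 5.91 and 3.13 CPM against 10.1 to 17.7. Kif11 alone was called, lower (log2 -1.05 ± 0.37, edgeR adjusted p = 0.0394), where 3.88% of genes were lower and 4.42% higher, and DESeq2 called none, with 4 members at an unadjusted p under 0.05 in edgeR. Without replicates 1 and 2, 26 members were called lower, and without replicates 3 and 4, 6 were called higher. The 3.88% and 4.42% of genes belong to the fit with all libraries. No share of all genes is given for the smaller fits, so their counts cannot be set against it. The count was 3 without AireKO replicate 1, 11 without replicate 2, and 0 without replicate 3 or 4 or without WT mTEClo replicate 1, 2, 6 or 7. In AireKO against WT mTEClo the cortical sum was 491 to 691 CPM against 291 to 366 and the myeloid sum 107 to 142 against 38.0 to 68.9, and their part in the result was not tested.

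From mTEClo to mTEChi within adult AireKO mice, 14 of 29 mitotic members were called higher and none lower, and among 19 S-phase members Rrm2 was called higher and E2f8 lower, where 18.5% of genes were called higher and 16.7% lower. Of further genes of these processes, 13 of 63 mitotic and 5 of 46 S-phase genes were called higher, and 1 S-phase gene lower. The median log2 fold change was 0.97 over the mitotic members, 0.68 over the further mitotic genes and 0 over all genes. Cdk1 was at 21.5, 29.9, 6.21 and 2.65 CPM in mTEClo and at 70.2, 69.9, 39.4 and 44.0 CPM in mTEChi. The fractions did not overlap and differed 4.42-fold (log2 2.14 ± 0.37, edgeR adjusted p = 1.14e-05). Cdc25c rose 4.67-fold and Bub1b 4.22-fold. The count of 16 was 27 without AireKO mTEClo replicate 2, 9 without replicate 4, and 34 without replicates 1 and 2 together. For these smaller fits no share of all genes is given. Several marker sums of other cells were lower in these mTEClo than in these mTEChi libraries without overlap, at 491 to 691 against 1058 to 1166 CPM for the cortical genes, 107 to 142 against 364 to 420 for the myeloid genes, 16.8 to 30.1 against 45.2 to 58.9 for the thymocyte genes and 59.7 to 135 against 191 to 210 for the mesenchymal genes. Their part in the result was not tested.

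Whether the effect of AireKO differed between the adult fractions was tested as an interaction, and 3 members were called, each with the lower value in mTEChi, where 11% of genes were called in that direction and 2.7% in the other. E2f8 gave a log2 difference of -2.36 ± 0.36, Cenpa, the histone variant of centromeres, -1.35 ± 0.38, and Ccne1 -1.34 ± 0.45 (edgeR adjusted p = 1.91e-05, 0.00891 and 0.0283). E2f8 was at 8.07, 12.4, 5.32 and 9.16 CPM in AireKO mTEClo against 3.87 to 8.85 in WT mTEClo, and at 3.49, 2.85, 2.72 and 2.90 in AireKO mTEChi against 8.46 to 14.01 in WT mTEChi. The count was 6 without AireKO mTEClo replicate 4, and 17 without replicates 1 and 2, of which 15 had the higher value in mTEChi. For these smaller fits no share of all genes is given.

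In neonatal mTEChi no member was called between AireKO and Ctrl by edgeR or by DESeq2, where 12.8% of genes were called lower and 3.56% higher. At an unadjusted p under 0.05 there were 7 members, and without the 2-fold limit 5 passed the adjusted test, all higher in AireKO (Cdt1, Mcm7, Ccna2, Cdk1 and Ube2c), where 28.8% of genes passed in either direction. Cdk1 was at 135, 168 and 145 CPM in AireKO and at 106, 108, 83.5, 80.7 and 83.2 CPM in Ctrl, without overlap (log2 0.70 ± 0.23, edgeR adjusted p = 0.024). Mki67 was at 573, 689 and 658 CPM in AireKO, above every Ctrl library, but did not pass (log2 0.50 ± 0.24, edgeR adjusted p = 0.13). The mitotic sum was 2944 to 3309 CPM in AireKO and 2071 to 2677 CPM in Ctrl. Leaving out Ctrl replicate 1 or 5 or AireKO replicate 3 gave 1 called member each. The AireKO libraries came from mice of 4 or 6 days and the Ctrl libraries from mice of 1 to 6 days.

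Neonatal EEDcKO libraries had lower levels of many division genes than Ctrl. In mTEClo 11 of 29 mitotic members and 1 of 19 S-phase members (E2f8) were called lower and none higher, where 6.22% of genes were lower and 9.51% higher. Without the 2-fold limit 32 of the 48 members passed as lower and Cenpa as higher, where 30.7% of genes passed in either direction. In mTEChi 4 mitotic members (Top2a, Kif11, Nusap1 and Cdc25c) and the S-phase member Ccne2 were called lower and Cdt1 higher, where 5.4% of genes were lower and 8.48% higher. Without the 2-fold limit 22 members passed there as lower and 2 as higher, where 32.6% of genes passed in either direction. The median log2 fold change over the mitotic members was -0.81 in mTEClo and -0.67 in mTEChi, and over all genes -0.0057 and -0.0012. Of 65 further mitotic genes 25 were called lower and 1 higher in mTEClo, and 17 lower and 1 higher in mTEChi.

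Top2a was at 325, 349 and 376 CPM in Ctrl mTEClo and at 152, 187, 91.0 and 122 CPM in EEDcKO mTEClo, without overlap, a 2.55-fold difference (log2 -1.35 ± 0.27, edgeR adjusted p = 0.00072). In mTEChi Top2a was at 447, 421, 289.8, 321 and 269.6 CPM in Ctrl and at 92.1, 135 and 165 CPM in EEDcKO, a 2.65-fold difference (log2 -1.41 ± 0.28, edgeR adjusted p = 0.000574). Every EEDcKO library lay below every Ctrl library of its fraction. Nusap1, which binds spindle microtubules, fell 2.50-fold in mTEClo and 2.31-fold in mTEChi. Ccnb1 was at 25.5, 24.4 and 33.0 CPM in Ctrl mTEClo and at 12.7, 15.7, 8.25 and 8.02 CPM in EEDcKO mTEClo (log2 -1.32 ± 0.32, edgeR adjusted p = 0.0031).

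Some members did not share this direction. Cdc20 in EEDcKO mTEChi was at 22.1, 70.7 and 90.1 CPM, on both sides of Ctrl at 50.3 to 64.2 CPM. Cenpa was at 30.0, 53.8, 33.4 and 36.1 CPM in EEDcKO mTEClo against 23.5, 22.3 and 28.5 in Ctrl, without overlap (log2 0.64 ± 0.21, edgeR adjusted p = 0.027, under 2-fold). In mTEChi Cenpa was at 24.6, 44.0 and 38.0 CPM in EEDcKO against 22.8, 18.9, 19.03, 21.9 and 25.0 in Ctrl, where 1 EEDcKO library overlapped (log2 0.74 ± 0.20, edgeR adjusted p = 0.0066, under 2-fold). Cdt1 was at 10.4, 28.0 and 26.2 CPM in EEDcKO mTEChi and at 6.25 to 11.4 CPM in Ctrl, a 2.48-fold difference in which 1 library overlapped (log2 1.31 ± 0.32, edgeR adjusted p = 0.0030).

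The ages of Ctrl and EEDcKO mice were not matched. Ctrl mTEClo libraries came from mice of 1 to 3 days and EEDcKO mTEClo libraries from mice of 1 to 6 days, and with age in days as a term 7 members in place of 12 were called in mTEClo. That count was 22 without EEDcKO mTEClo replicate 2, from 1-day mice, and 7 without replicate 3, from 6-day mice. In mTEChi the count of 6 was 13 without EEDcKO replicate 2 and 12 without replicate 3. The cortical sum was 2170 to 3307 CPM in Ctrl mTEClo and 267 to 984 in EEDcKO mTEClo, and 572 to 1065 against 344 to 455 in mTEChi. The mesenchymal sum was 120 to 128 CPM in Ctrl mTEClo and 492 to 678 in EEDcKO mTEClo, and 239 to 313 against 488 to 772 in mTEChi. Which cells these RNAs came from, and their part in the result, was not tested.

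**Figure D3:**
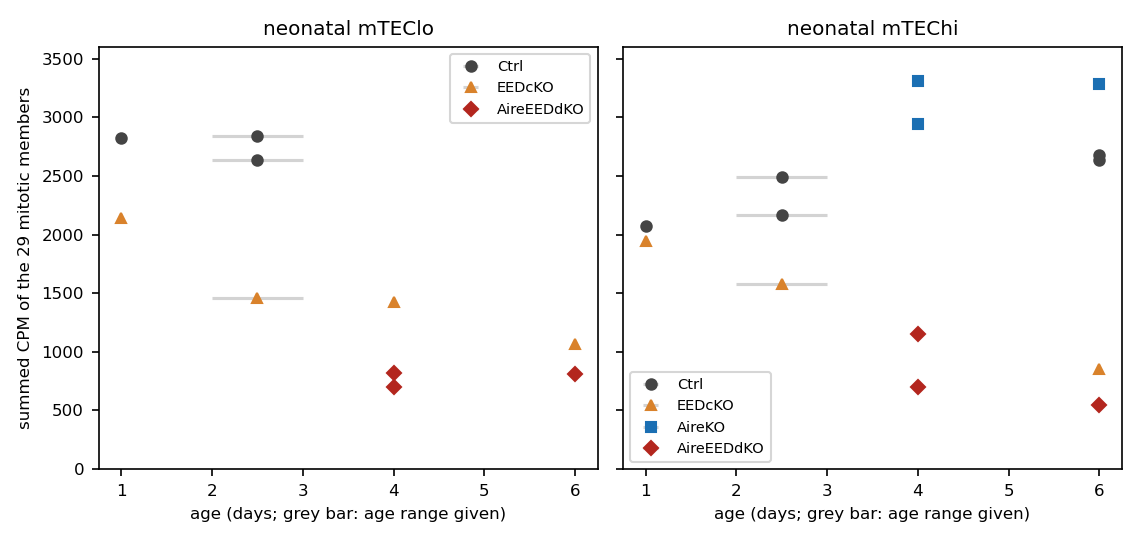
Summed level of the 29 mitotic members (CPM, y axis) against age in days (x axis) in each neonatal library by genotype, mTEClo on the left and mTEChi on the right; a grey bar spans the age range where the label gives 2 to 3 days. EEDcKO libraries are at 2141 and 1944 CPM at 1 day and at 1066 and 855 CPM at 6 days, while the 6-day Ctrl mTEChi libraries are at 2677 and 2634 CPM.

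The response to EED loss was also compared between fractions. No member was called in that interaction by edgeR, where 3 had an unadjusted p under 0.05, or by DESeq2, and 0.614% of genes were called higher and 0.97% lower. Leaving out EEDcKO mTEClo replicate 2 or EEDcKO mTEChi replicate 1 gave 1 called member each. From mTEClo to mTEChi within EEDcKO no member was called by edgeR, where 6 had an unadjusted p under 0.05, or by DESeq2, while 14.2% of genes were called higher and 7.67% lower. Leaving out EEDcKO mTEChi replicate 2 gave 2 called members, and leaving out mTEChi replicate 1 or mTEClo replicate 2, 3 or 4 gave 1 each.

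In neonatal mTEChi the division genes stood far lower in AireEEDdKO than in AireKO. The mitotic sum was 698, 549 and 1156 CPM in AireEEDdKO and 2944, 3285 and 3309 CPM in AireKO, with mice of 4, 6 and 4 days in each. Of the 48 members 40 were called lower and none higher, where 2.78% of genes were lower and 6.69% higher. They were 28 of 29 mitotic members, all except Birc5, and 12 of 19 S-phase members, and for 45 of the 48 members every AireEEDdKO library lay below every AireKO library, as for 15.8% of all genes tested, with 18.9% lying apart in the other direction. The median log2 fold change was -1.88 over the mitotic members, -1.33 over the S-phase members and 0.034 over all genes, and 54 of 65 further mitotic and 25 of 46 further S-phase genes were called lower and none higher. Leaving out any 1 library of these groups kept the count between 38 and 42. The mesenchymal sum was 400.0 to 722 CPM in AireEEDdKO and 248 to 348 in AireKO, and its part in the result was not tested.

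Mki67 was at 573, 689 and 658 CPM in AireKO mTEChi and at 98.8, 92.4 and 239 CPM in AireEEDdKO mTEChi. The groups did not overlap and differed 4.39-fold (log2 -2.13 ± 0.29, edgeR adjusted p = 2.31e-05). Cdc25c fell most, from 55.8, 56.1 and 55.0 CPM to 7.02, 9.18 and 11.5 CPM (log2 -2.55 ± 0.37, edgeR adjusted p = 5.18e-05). Hmmr, a spindle protein, fell 5.67-fold, Anln, a scaffold of the contractile ring, 5.30-fold, and Cdk1 5.23-fold. Birc5 was at 28.6, 31.5 and 30.8 CPM in AireKO and at 19.3, 9.18 and 22.9 CPM in AireEEDdKO (log2 -0.79 ± 0.33, edgeR adjusted p = 0.109).

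Among S-phase members Rrm2 fell 3.81-fold, from 110.3, 97.2 and 109 CPM to 21.6, 13.2 and 44.3 CPM (edgeR adjusted p = 0.000218), and Tyms, the thymidylate synthase, 3.23-fold. Mcm5 was at 68.8, 79.4 and 94.5 CPM in AireKO and at 13.4, 16.6 and 43.9 CPM in AireEEDdKO, without overlap (log2 -1.64 ± 0.39, edgeR adjusted p = 0.00545). Pcna overlapped, at 63.3, 61.6 and 56.4 CPM against 58.5, 27.5 and 36.3 CPM, and did not pass the test (log2 -0.57 ± 0.28, edgeR adjusted p = 0.184). Cdc6, Cdt1 and E2f1 did not pass either, with log2 differences of -0.75, -0.93 and -0.82. The ratio of the mitotic to the S-phase sum was 2.48 to 2.89 in AireKO and 1.49 to 1.75 in AireEEDdKO.

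Against EEDcKO, AireEEDdKO libraries were lower for 14 mitotic and 4 S-phase members in mTEChi, where 8.36% of genes were lower and 4.99% higher, and for 12 members, all mitotic, in mTEClo, where 1.85% of genes were lower and 3.45% higher. No member was called higher in either fraction. In mTEChi 11 of 65 further mitotic and 5 of 46 further S-phase genes were called lower, and 1 mitotic gene higher. In mTEClo 16 of 65 further mitotic and 2 of 46 further S-phase genes were called lower and none higher. The median log2 fold change over the mitotic members was -1.02 in mTEChi and -0.94 in mTEClo. Over the further mitotic genes it was -0.56 and -0.78. Cenpa was at 24.6, 44.0 and 38.0 CPM in EEDcKO mTEChi and at 9.94, 9.75 and 11.5 CPM in AireEEDdKO mTEChi, without overlap (log2 -1.79 ± 0.25, edgeR adjusted p = 4.92e-05). Cdc20 was at 22.1, 70.7 and 90.1 CPM against 16.4, 12.0 and 24.5, where the groups overlapped (log2 -1.78 ± 0.35, edgeR adjusted p = 0.00096). In mTEClo Kif11 fell 3.14-fold, from 51.4, 76.3, 32.4 and 41.1 CPM to 17.5, 15.5 and 14.7 CPM, Ccnb1 2.699-fold and Cenpf, a kinetochore protein, 2.48-fold.

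These genotypes differ in age, since EEDcKO mice were 1 to 6 days old and AireEEDdKO mice 4 or 6 days. In mTEClo the library code is missing from all AireEEDdKO titles and from those of EEDcKO replicates 3 and 4. With age in days as a term the mTEChi count was 9 in place of 18. It was 8 without EEDcKO mTEChi replicate 3, 9 and 7 without AireEEDdKO mTEChi replicates 1 and 2, and 30 without AireEEDdKO mTEChi replicate 3. The mTEClo count of 12 was 5 without EEDcKO mTEClo replicate 2, 21 without EEDcKO mTEClo replicate 3, and 7, 7 and 4 without AireEEDdKO mTEClo replicates 1, 2 and 3. With only these groups in the fit it was 8 in mTEChi and 0 in mTEClo.

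Whether the effect of losing Aire differed with EED was tested as an interaction in neonatal mTEChi. It was called for 11 members, 9 of them mitotic, each with the lower value where EED was also lost, where 0.446% of genes were called in that direction and 0.807% in the other. Of further genes of these processes, 0 of 65 mitotic and 1 of 46 S-phase genes were called, the latter also lower. The median log2 difference was -1.26 over the mitotic members, -0.78 over the further mitotic genes and 0.039 over all genes. Cdt1 gave a log2 difference of -2.24 ± 0.51, Cdc20 of -1.998 ± 0.45 and Ube2c of -1.90 ± 0.44 (edgeR adjusted p = 0.033, 0.032 and 0.033), and Mki67 did not pass (-1.17 ± 0.37, edgeR adjusted p = 0.11). Single libraries moved this count between 1 and 28. It was 28 without AireEEDdKO replicate 3 and 23 without EEDcKO replicate 1. It was 5 without Ctrl replicate 4, 4 without AireKO replicate 1 or 2, 3 without EEDcKO replicate 2, 2 without Ctrl replicate 3, EEDcKO replicate 3 or AireEEDdKO replicate 1 or 2, and 1 without AireKO replicate 3.

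From mTEClo to mTEChi within AireEEDdKO, Nusap1 was called higher and Cdt1 and Cenpa lower, where 10.4% of genes were called higher and 10.6% lower. Cdt1 was at 25.4, 25.5 and 36.3 CPM in mTEClo and at 5.85, 10.9 and 10.8 CPM in mTEChi, without overlap (log2 -1.63 ± 0.37, edgeR adjusted p = 0.00142). The mitotic sums overlapped, at 822, 812 and 696 CPM in mTEClo and 698, 549 and 1156 CPM in mTEChi. With a replicate block, 6 members were called in place of 3, of which 5 were lower. The count was 5 and 12 without AireEEDdKO mTEChi replicates 1 and 3 and 7 without mTEClo replicate 1. The titles of these mTEClo libraries lack the library code that the mTEChi titles carry, so fraction and this difference cannot be told apart.

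**Figure D4:**
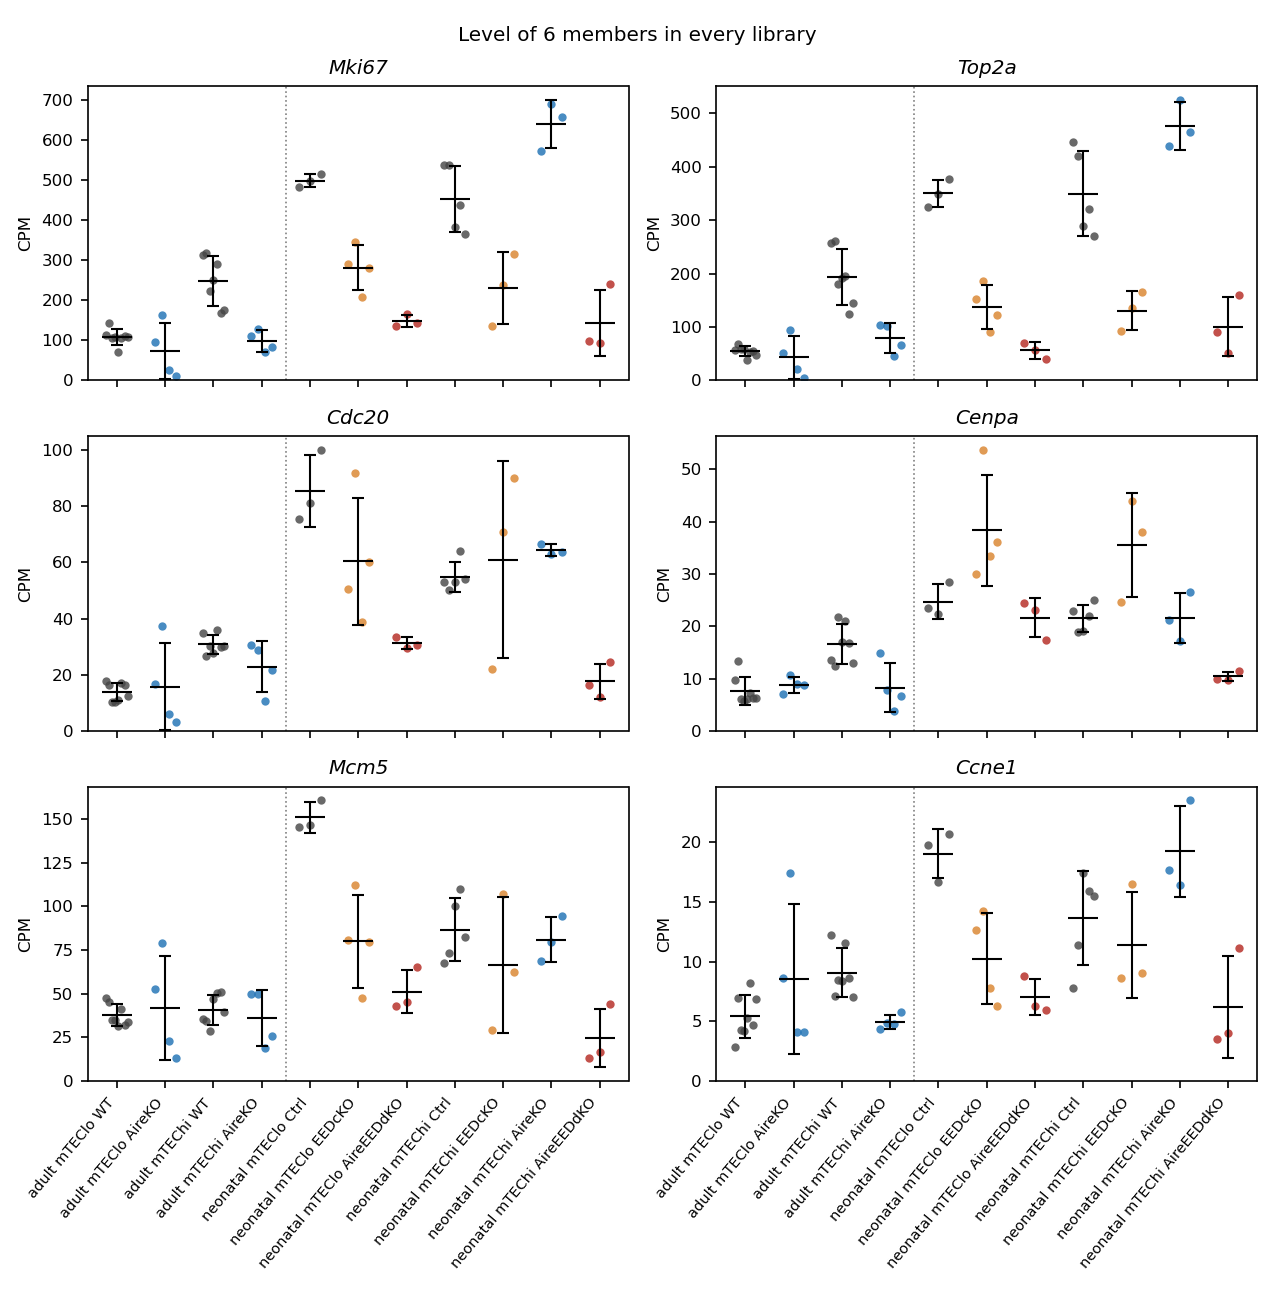
Level (CPM, y axis) of Mki67, Top2a, Cdc20, Cenpa, Mcm5 and Ccne1 in every library (points) of the 11 groups (x axis), with the mean and SD (bars); the dotted line parts the adult and neonatal tables. Top2a lies at 165 CPM or lower in EEDcKO mTEChi against 269.6 CPM or higher in Ctrl, while Cenpa lies at 24.6 CPM or higher in every EEDcKO library.

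Across the neonatal groups, with group held constant, 6 members fell with age in days, 5 mitotic (Ccnb2, Cdc20, Kif20a, Ube2c and Foxm1) and 1 S-phase (Pcna), and none rose, where 1.87% of genes fell and 1.16% rose at an adjusted p under 0.05 of any size. The slope was -0.17 ± 0.04 log2 units per day for Cdc20, -0.17 ± 0.04 for Kif20a and -0.16 ± 0.04 for Ube2c (edgeR adjusted p = 0.024, 0.021 and 0.046). Within EEDcKO alone, a comparison chosen after seeing the data, 16 members fell with age, where 0.579% of genes fell and 0.416% rose. In EEDcKO mTEClo the older libraries are those whose titles lack the library code. In that group age and this difference cannot be told apart. No member passed the slope over all genotypes in mTEChi alone or in mTEClo alone by edgeR, where 8 and 26 had an unadjusted p under 0.05, and DESeq2 was not run on single fractions. The count was 0 without EEDcKO mTEClo replicate 2 or EEDcKO mTEChi replicate 1, 10 without Ctrl mTEChi replicate 5, and 3 without Ctrl mTEClo replicate 1 or 2, Ctrl mTEChi replicate 2, AireKO mTEChi replicate 2 or EEDcKO mTEClo replicate 3.

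The mitotic members varied together across libraries more closely than the S-phase members did with them. Over the 24 neonatal libraries the log2 level of a mitotic member had a median Pearson r of 0.942 with the sum of the other mitotic members, from 0.328 for Cenpa to 0.988 for Hmmr. Over the 23 adult libraries the median was 0.926, from 0.606 for Cenpa to 0.981 for Ccna2. For S-phase members the median r with the mitotic sum was 0.806 in neonatal and 0.470 in adult libraries, with Cdt1 at -0.130 in neonatal libraries and Mcm7 at -0.358 in adult ones. These libraries share groups and scaling, and the values are a description.

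**Figure D5:**
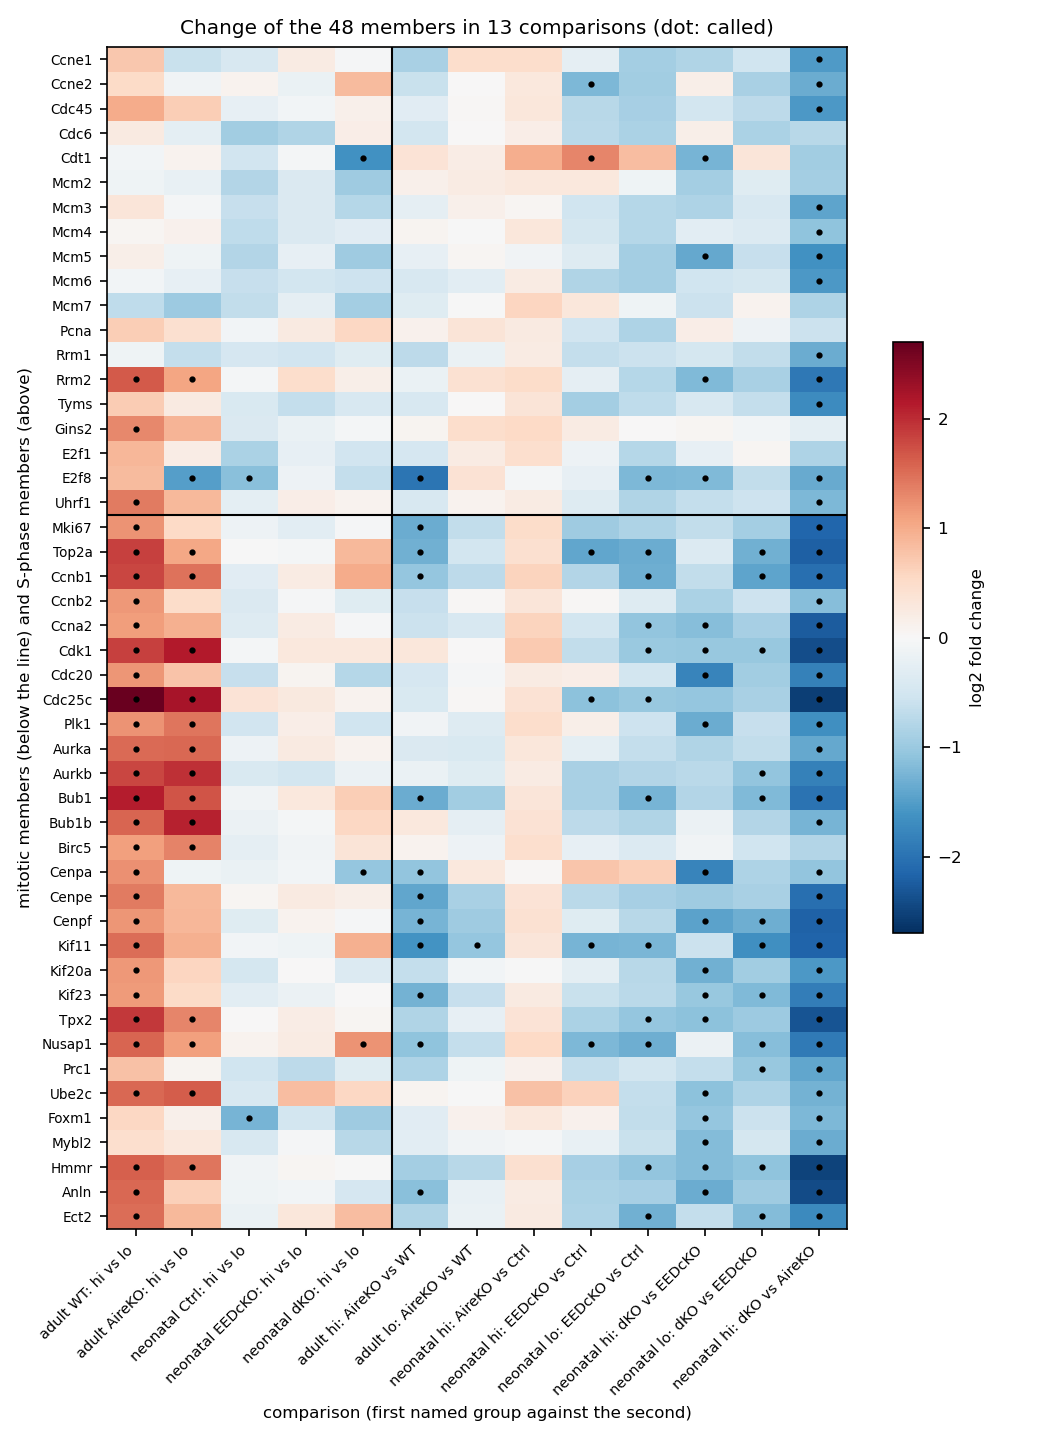
Log2 fold change (colour, red for higher and blue for lower in the first named group) of the 48 members (y axis, S-phase above the line and mitotic below) in 13 comparisons (x axis); a dot marks a called change, and hi, lo and dKO stand for mTEChi, mTEClo and AireEEDdKO. The first column holds 29 dots, all for higher levels, and the last 40, all for lower levels.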

How the data were processed

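RNA was measured by RamDA-seq in 47 libraries of sorted mTECs, 23 adult and 24 neonatal. The deposited values are whole-number read counts per gene, which the authors made by trimming with fastp 0.20.0, aligning with STAR 2.7.3a to mm10, removing reads of low mapping quality (SAMtools 1.9) and duplicates (Picard 2.21.1), and counting without strand with HTSeq 0.11.2. The deposited normalized tables were not used. Removal of duplicates without molecular identifiers can lower the counts of abundant RNAs. Value columns outside the listed samples: 0.

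Counts were filtered with filterByExpr, scaled by TMM and fitted over all groups of a table with edgeR 4.0.16 (quasi-likelihood test, R 4.3.3, limma 3.58.1), and p-values were adjusted over all genes tested. CPM uses TMM-scaled library sizes. The adult and neonatal tables were fitted together only for the difference between ages. Depth was 1578579 to 4817418 counted reads per library, which limits the precision of members at a few CPM. Scripts were tested on simulated data. Members and lists were chosen with earlier results of these data known. Besides the members, up to 3 called members with the largest rise and up to 3 with the largest fall, at 10 CPM or more in the higher group, were named in each comparison, and values by library are given for fixed members.

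Alternatives were DESeq2 1.42.0, other scalings and filters, sex or age as a term, fewer groups in the fit, a replicate block and leaving out each library. Shares of all genes called come from the main fits, and none is given for the counts under these alternatives. The labels reuse replicate numbers between groups. Deviations of same-numbered libraries correlated above 0.1 in every pair for mTEChi against mTEClo in adult AireKO (0.145 to 0.238) and in AireEEDdKO (0.304 to 0.432) and for AireEEDdKO against AireKO (0.122 to 0.226), and in no other comparison.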

Additional observations from a re-analysis of the deposited data

Results flagged for a closer look

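Of 102 groups of 4 to 10 libraries examined gene by gene, 5 had a library set far from the others, and chance gives about 1 in 20 such groups. Cdk1 was low in adult WT mTEChi replicate 3 at 35.6 CPM. Birc5 was high in adult WT mTEClo replicate 2 at 8.22 CPM. Cdc20 was high in neonatal Ctrl mTEChi replicate 4 at 64.2 CPM and E2f1 in replicate 3 of that group at 15.2 CPM. Rrm2 was high in neonatal EEDcKO mTEClo replicate 2, from 1-day mice, at 79.8 CPM.

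In adult mice the effect of AireKO differed between fractions for 3 members, with log2 differences (mTEChi minus mTEClo) of -2.36 for E2f8, -1.35 for Cenpa and -1.34 for Ccne1. Of all genes 11% were called in that direction and 2.7% in the other, so the share of members called is below that of all genes. Without AireKO mTEClo replicates 1 and 2 the count was 17, of which 15 had the higher value in mTEChi. No share of all genes is given for that smaller fit. In neonatal mTEChi the effect of losing Aire differed with EED for 11 members, among them Cdt1 at -2.24, Cdc20 at -1.998, Ube2c at -1.90, Cenpa at -1.81, Cdk1 at -1.72 and Rrm2 at -1.69, where 0.446% of genes were called in that direction. Of further genes of these processes, 0 of 65 mitotic and 1 of 46 S-phase genes were called. The change from mTEClo to mTEChi differed between adult and neonatal mice for 37 members, where 14.1% of genes were called in that direction. Its log2 difference (adult minus neonatal) was 2.30 for Cdc25c, 2.21 for Bub1, 2.21 for Aurkb, 2.10 for Ccnb1, 1.88 for Cdk1, 1.84 for Top2a, 1.80 for Cdc20, 1.67 for Aurka, 1.40 for Cenpa, 1.35 for Birc5 and 1.35 for Mki67. Among S-phase members it was 1.74 for E2f1, 1.69 for Rrm2, 1.66 for Uhrf1, 1.18 for Cdc6 and 1.17 for Ccne1. These differences were tested as interaction terms in edgeR.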

How the results depend on the processing

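Depth limits members at a few CPM, and groups of 3 or 4 libraries limit the counts. Of the values of single members under other settings 6755 kept their call, 110 gained and 241 lost it, and 9 changed sign while called in either fit. A further 273 values called in neither fit also changed sign, 152 of them with 1 library left out. The 9 came with fewer adult AireKO mTEClo libraries. Without the ones with mitochondrial reads, the log2 change of AireKO against WT mTEClo was -1.53 for Cdk1, -2.29 for E2f1, -1.05 for Mcm5 and -1.88 for Uhrf1, and the difference between fractions 1.16 for Cdc20, 1.84 for E2f1, 1.25 for Mki67 and 1.46 for Uhrf1. Without the ones with 0 such reads, Kif11 gave 0.054. The counts of called members then were 34 (mTEChi against mTEClo in AireKO), 26 (AireKO against WT mTEClo) and 17 (difference between fractions) without the first, and 6 for AireKO against WT mTEClo without the second. These counts have no share of all genes beside them. Without the 6-week libraries AireKO against WT mTEChi gave 5. The settings behind the 26, with its values for Cdk1, E2f1, Mcm5 and Uhrf1, and behind the 5 were chosen after seeing the data.

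With no minimum change, edgeR and DESeq2 counted 21 and 21 members for adult AireKO against WT mTEChi, 10 and 8 for mTEChi against mTEClo in Ctrl, 3 and 3 in EEDcKO and 10 and 13 in AireEEDdKO, 24 and 26 for EEDcKO against Ctrl in mTEChi and 33 and 37 in mTEClo, 5 and 4 for neonatal AireKO against Ctrl, and 21 and 26 for AireEEDdKO against EEDcKO in mTEClo. DESeq2 with no minimum gave 6 for the adult difference between fractions and 0 for AireKO against WT mTEClo, where DESeq2 with the minimum, sex as a term and a fit of the groups compared also gave 0.

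With only the groups compared the count was 9 for mTEChi against mTEClo in adult AireKO and, for AireEEDdKO against EEDcKO, 8 in mTEChi and 0 in mTEClo. With age in days as a term it was 7 for EEDcKO against Ctrl mTEClo, 9 for AireEEDdKO against EEDcKO mTEChi and 1 for neonatal AireKO against Ctrl. For AireEEDdKO mTEChi against mTEClo it was 6 by library size alone, 5 with no filter on low counts and 6 with sex as a term. The replicate block gave 6 there, where deviations of same-numbered libraries correlated above 0.1, although no label says that they share animals. The block also gave 5 for AireKO against WT mTEClo, 1 for mTEChi against mTEClo in EEDcKO and 2 for the difference of the Aire effect with EED. It moved no other count by over 1.5 times. With no filter on low counts the count was 1 for the EED effect between fractions, 19 for the Aire effect with EED, 12 for the slope with age, 9 for the slope difference between EEDcKO and Ctrl, and 30 for the slope in EEDcKO. The slope with age gave 1 with sex as a term, 0 in mTEChi and 0 in mTEClo alone. The slope difference gave 4 in mTEChi alone, and the slope in EEDcKO 8 by library size alone, 6 in mTEChi and 0 in mTEClo alone. By library size alone the neonatal AireKO mTEChi sums were 1098 CPM (S-phase) and 2892 CPM (mitotic) in place of 1206 and 3179. The cause of these changes was not tested.

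Leaving out each library gave 29 to 30 called members for adult WT mTEChi against mTEClo and 9 to 27 for adult AireKO. The same contrast of fractions in neonates gave 1 to 3 (Ctrl), 0 to 2 (EEDcKO) and 2 to 12 (AireEEDdKO). AireKO against WT gave 9 to 13 in adult mTEChi and 0 to 11 in adult mTEClo, and 0 to 1 against Ctrl in neonatal mTEChi. The adult difference between fractions gave 2 to 6. EEDcKO against Ctrl gave 4 to 13 in mTEChi, 7 to 22 in mTEClo and 0 to 1 for the difference. AireEEDdKO gave 38 to 42 against AireKO, and 7 to 30 in mTEChi and 4 to 21 in mTEClo against EEDcKO. The Aire effect with EED gave 1 to 28, the slope with age 0 to 10, the slope difference 0 to 1, the slope in EEDcKO 4 to 17, and the difference between ages 35 to 37.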

Other observations

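Slopes over age in days were also fitted within neonatal EEDcKO and Ctrl libraries, a comparison chosen after seeing the data. Within EEDcKO 15 mitotic members and 1 S-phase member (Pcna) fell with age, where 0.579% of genes fell and 0.416% rose. The older EEDcKO mTEClo libraries are those whose titles lack the library code, so in that group age and this difference cannot be told apart. Kif20a fell most, by 0.31 ± 0.04 log2 units per day (edgeR adjusted p = 0.00501), and Cdc20 by 0.29 ± 0.05 (edgeR adjusted p = 0.0124). Within Ctrl no member passed the edgeR test, and 0 had an unadjusted p under 0.05. The difference between these slopes was called for no member by edgeR, although 27 had an unadjusted p under 0.05, and DESeq2 was not run for these slopes, so the slopes are not shown to differ in this fit. The difference was called for 9 members with no filter on low counts, for 4 in mTEChi alone and for 1 without EEDcKO mTEClo replicate 1. The count of 16 within EEDcKO was 4 and 6 without EEDcKO mTEClo replicates 2 and 3, 7 without EEDcKO mTEChi replicate 1, 9, 8 and 9 without Ctrl mTEClo replicates 1, 2 and 3, and 9, 8, 8 and 10 without Ctrl mTEChi replicates 1, 2, 3 and 5.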
